A study of Mus musculus with 2 samples.

Results

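Immature thymocytes that carry both CD4 and CD8, the double-positive cells, rearrange the TCRα locus, and most of the genes examined here belong to that stage or the one before it. RAG1 and RAG2 together form the recombinase that cuts V, D, and J segments, and terminal deoxynucleotidyl transferase (TdT, encoded by *Dntt*) adds untemplated bases at the cut ends. The pre-TCRα chain, encoded by *Ptcra*, pairs with a fresh TCRβ chain before any TCRα exists. Positive selection ends recombination, and maturing thymocytes lower these genes along with the surface protein CD24.

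A set of 7 genes was examined, *Rag1*, *Rag2*, *Dntt*, *Ptcra*, *Arpp21*, *Cd24a*, and *Cd4*, of 48321 genes in the count tables. They were chosen by name as recombination and double-positive-stage genes that mature cells should have shut off, and all 7 have a row in both tables. Mature thymocytes without surface CD4 were taken from mice of the genotype MHC-II0:CD8ab Tg, with C57Bl/6 given as the strain, and there were 2 libraries of this single group. The mice lack the I-Ab chain of MHC class II (*I-Ab* -/-) and the endogenous CD8α and CD8β chains (*Cd8* Δab/Δab). Both CD8 chains come instead from cDNAs in the *Rosa26* locus (*Rosa26* 8a/8b), which *Cd4-Cre*, a Cre recombinase under *Cd4* control elements, switches on in thymocytes. The age and number of the mice are not given in the sources used here, and the library titles describe cells without either co-receptor whereas their cell type entries name CD8+ cells. No wild-type or double-positive library was analysed here, so the values are levels and no fold change between stages or genotypes was computed.

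Replicate 1 had 16732644 counts on genes and replicate 2 had 16245849, which was 40.6% and 41.2% of the uniquely aligned reads. Levels are given as CPM, the counts scaled to a common total on genes, and 3 counts, taken as the smallest level that can be shown, equal 0.179 CPM in replicate 1 and 0.185 CPM in replicate 2. Intervals for single libraries are Wilson 95% intervals and cover counting error only. The libraries differ in sex-linked RNA, with *Xist* at 34 and 25266 counts and *Ddx3y* at 2450 and 0 counts. RNA of the Y-linked *Ddx3y* was thus found in replicate 1 alone and *Xist*, expressed from the inactive X of females, almost wholly in replicate 2, so the libraries did not come from the same mouse. The disrupted *H2-Ab1* gene had 395 and 292 counts, and *Cd8a* 2647 and 2784, but counts per gene do not separate disrupted or inserted copies from intact ones. Genes of mature T cells were abundant, with the TCR signalling chain gene *Cd3e* at 388 ± 28.1 CPM (SD, n = 2).

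The 7 genes were found at different levels. *Dntt* stood at 13.2 ± 0.282 CPM (SD, n = 2), whereas each of the other 6 genes was at 3.05 CPM or less in each library. *Rag2* and *Ptcra* had no more than 4 counts in either library. The 7 genes summed to 324 counts in replicate 1 and 307 in replicate 2, or 19.1 ± 0.330 CPM. *Dntt* alone made up 69.1% of these counts in replicate 1 (exact 95% interval, 63.8 to 74.1%) and 68.7% in replicate 2 (63.2 to 73.9%). The other 6 genes together came to 5.98 CPM in replicate 1 and to 5.91 in replicate 2. Both libraries reached 1 CPM for 3 of the 7 genes, *Dntt*, *Arpp21*, and *Cd24a*. Replicate 2 taken alone held 5, since *Rag1* and *Cd4* passed 1 CPM there but not in replicate 1. Of the 15949 genes with at least 10 counts in all, 12667 reached 1 CPM in both libraries. In such bulk RNA, a small share of cells that express a gene strongly and a low level in all cells cannot be told apart.

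**Figure D1:**
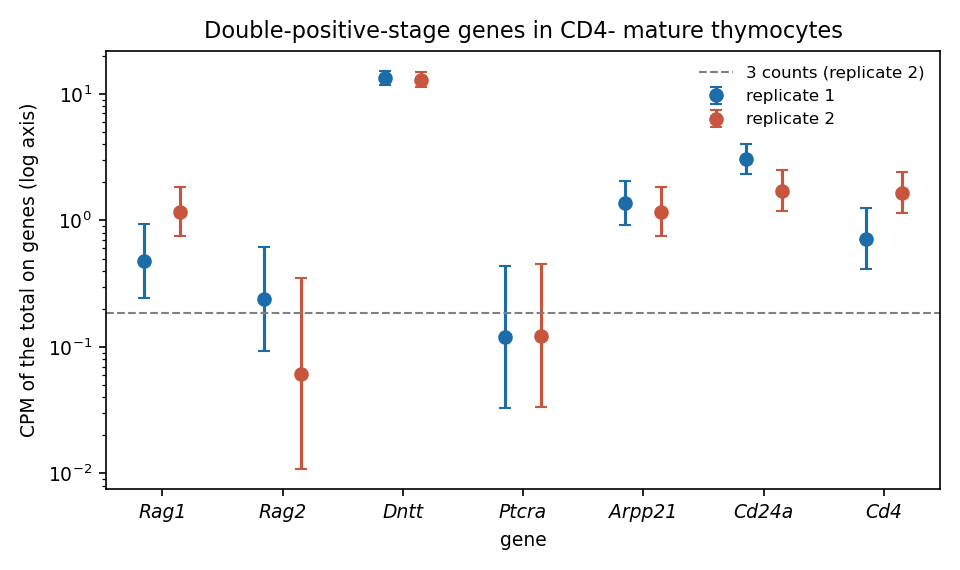
Level of each of the 7 genes in each library, in CPM on a log axis, with Wilson 95% intervals as bars and the level of 3 counts as a dashed line. *Dntt* sits at 13.4 and 13.0 CPM, above the other 6 genes, and *Ptcra* lies under the line in both libraries.

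*Rag1* spans positions 101638282 to 101649501 of chromosome 2 (GRCm38, minus strand) and *Rag2* faces it at positions 101624718 to 101632529 (plus strand), so that 5752 bases separate them. *Rag1* had 8 counts in replicate 1 against 19 in replicate 2, or 0.478 CPM (interval 0.242 to 0.944) and 1.17 CPM (0.749 to 1.83). *Rag2* had 4 counts and 1 count, or 0.239 CPM (0.0930 to 0.615) and 0.0616 CPM (0.0109 to 0.349). In replicate 2 *Rag2* lay under the smallest level that can be shown, and its 2 intervals overlap. The *Rag2* counts are thus too few to give a direction between the libraries or a ratio to *Rag1*. Exons of *B230118H07Rik* overlap 80 bases of *Rag1* exon and 208 bases of *Rag2* exon. That gene, which is protein-coding, had 9 and 5 counts, and reads in overlaps may have gone to neither gene. *Traf6*, a signalling adaptor gene 28927 bases from *Rag1*, was at 69.5 CPM, so the low level was not shared by this side of the locus. On the other side of *Rag2*, the nearest protein-coding gene that does not overlap it, *Gm10800*, is 2957416 bases away.

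*Dntt*, at positions 41029275 to 41059525 of chromosome 19 (plus strand), had 224 counts in replicate 1 and 211 in replicate 2. These amount to 13.4 CPM (interval 11.7 to 15.3) and 13.0 CPM (11.3 to 14.9), and both intervals lie far above those of *Rag1* and *Rag2*. *Dntt* was higher than 49.3% of the 15949 genes with at least 10 counts in all, against 15.8% for *Rag1*. The genes beside it did not share its level, since *Opalin*, 2184 bases away, had 0 counts in both libraries, and *Blnk*, a B cell adaptor gene 34739 bases away, had 3 and 2. No annotated exon of another gene overlaps *Dntt*, and 0% of the 50-base windows of its transcripts occur in transcripts of other genes. TdT belongs to the same polymerase family as Pol μ and Pol λ, which fill gaps in general end joining and were compared after their values were seen. Per kb of annotated exon, the level of *Dntt* was 0.617 ± 0.0943 times that of *Polm* and 1.22 ± 0.00390 times that of *Poll* (SD, n = 2).

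*Ptcra*, at positions 46755663 to 46763712 of chromosome 17 (minus strand), had 2 counts in each library. That corresponds to 0.120 CPM (interval 0.0328 to 0.436) in replicate 1 and to 0.123 (0.0338 to 0.449) in replicate 2, under the smallest level that can be shown. A low level could therefore not be distinguished from absence at this depth. Its protein-coding neighbours *Cnpy3*, 3448 bases away, and *2310039H08Rik*, 8922 bases away, were at 30.2 and 9.11 CPM. The chains that the pre-TCR shares with the mature receptor were abundant, with 6825 and 5980 counts for *Cd3e* and 4300 and 4305 for *Trbc2*, a constant region gene of TCRβ, both picked after their values were seen.

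The stretches of 250 bases before the transcription starts of these 4 genes are shown because all 4 serve antigen receptor assembly in immature thymocytes, and the level of *Dntt* stood apart from those of *Rag1*, *Rag2*, and *Ptcra*. They are RefSeq sequences on GRCm38.p6, read 5′ to 3′ on the strand of the gene. E proteins, encoded by *Tcf3* and *Tcf12*, bind E-boxes and are known activators of *Rag1*, *Rag2*, and *Ptcra*. Capitals mark the E-boxes CAGCTG, which reads the same on both strands, and CAGGTG, searched on both strands and written CACCTG where it lies on the other one.
Rag1, chr2:101649533-101649782, minus strand: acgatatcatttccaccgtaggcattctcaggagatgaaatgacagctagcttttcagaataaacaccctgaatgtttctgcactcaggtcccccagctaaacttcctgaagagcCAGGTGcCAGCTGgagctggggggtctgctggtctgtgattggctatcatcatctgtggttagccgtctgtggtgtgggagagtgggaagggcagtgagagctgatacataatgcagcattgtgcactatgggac
Rag2, chr2:101624462-101624711, plus strand: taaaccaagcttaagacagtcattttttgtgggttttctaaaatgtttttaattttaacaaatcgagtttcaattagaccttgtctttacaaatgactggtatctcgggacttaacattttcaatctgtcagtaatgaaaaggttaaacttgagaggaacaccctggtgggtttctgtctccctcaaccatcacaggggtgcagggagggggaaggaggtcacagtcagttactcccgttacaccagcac
Ptcra, chr17:46763713-46763962, minus strand: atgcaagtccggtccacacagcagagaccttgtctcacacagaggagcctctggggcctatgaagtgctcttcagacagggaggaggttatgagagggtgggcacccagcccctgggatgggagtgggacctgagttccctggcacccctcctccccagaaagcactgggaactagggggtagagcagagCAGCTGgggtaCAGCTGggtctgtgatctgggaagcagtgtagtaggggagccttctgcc
Dntt, chr19:41029025-41029274, plus strand: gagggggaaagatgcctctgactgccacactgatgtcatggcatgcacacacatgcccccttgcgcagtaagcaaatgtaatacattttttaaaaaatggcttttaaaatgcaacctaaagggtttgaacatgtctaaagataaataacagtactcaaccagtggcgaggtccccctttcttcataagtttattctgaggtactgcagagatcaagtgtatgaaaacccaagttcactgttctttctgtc
The *Rag1* stretch holds 2 such E-boxes, starting 135 and 128 bases before the transcription start. The *Ptcra* stretch holds 2, starting 60 and 49 bases before it. The stretches of *Rag2* and *Dntt* hold 0. At least 1 of these E-boxes is found in 27.7% of the 32851 promoter stretches of this length in the RefSeq table, and 2 or more in 5.21%, so the letters are common and a match is not a bound site. *Tcf3*, examined after its values were seen, was at 148 ± 12.9 CPM and *Tcf12* at 170 ± 17.4 CPM (SD, n = 2) in the same libraries. *Id2* and *Id3*, for inhibitors of E proteins, were at 131 ± 7.35 and 64.0 ± 11.3 CPM, also picked after their values were seen. Whether E proteins act on these 4 genes in these cells was not tested. *Arpp21* has 9 starts in the table, 5 of them with a match, and *Cd24a* and *Cd4* have none in it.

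*Arpp21* encodes a cAMP-regulated phosphoprotein that binds RNA and is known from brain and double-positive thymocytes. The gene covers positions 112065091 to 112235938 of chromosome 9 (minus strand). Replicate 1 gave 23 counts and replicate 2 gave 19, or 1.37 CPM (interval 0.916 to 2.06) and 1.17 CPM (0.749 to 1.83). The libraries thus lay within each other's intervals. Exons of *2900079G21Rik* on the opposite strand overlap 580 bases of its exons, with 2 and 0 counts on that gene. The nearest protein-coding genes are *Stac*, 374742 bases away at 0.0905 CPM, and *Pdcd6ip*, 1415805 bases away at 264 CPM. An intron of *Arpp21* holds *Mir128-2*, whose row had 0 counts in both libraries. Poly(A) libraries are not made to capture mature miRNAs. The mature miRNA of this host gene is shown with its seed, bases 2 to 8, in capitals (RefSeq, GRCm38.p6, chr9:112118644-112118664, minus strand).
mmu-miR-128-3p: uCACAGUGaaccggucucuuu

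*Cd24a* and *Cd4* encode surface proteins by which the cells were sorted, as mature thymocytes were defined by low CD24 and high TCRβ and the CD4- cells among them were taken. Low RNA of these genes is therefore tied to the gate. *Cd24a*, for the heat-stable antigen CD24, is found at positions 43578284 to 43584265 of chromosome 10 (plus strand). Replicate 1 gave 51 counts and replicate 2 gave 28, or 3.05 CPM (interval 2.32 to 4.01) and 1.72 CPM (1.19 to 2.49). Only 12.6% of its main transcript is coding, and 2.75% of its 50-base windows occur in transcripts of another gene, *Gm6212*, so a part of its reads may have been dropped as aligning to several places. Its neighbours *1700021F05Rik*, 37289 bases away, and *Qrsl1*, 289922 bases away, were at 6.86 and 15.5 CPM.

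*Cd4* is found at positions 124864692 to 124888221 of chromosome 6 (minus strand). Replicate 1 gave 12 counts and replicate 2 gave 27, or 0.717 CPM (interval 0.410 to 1.25) and 1.66 CPM (1.14 to 2.42). *Cd4* was lower per kb of exon than *Cd8a*, which includes reads of the inserted cDNA, by a factor of 245 in replicate 1 and 114 in replicate 2. These factors are approximate, since they use the annotated exon length of *Cd8a* and the length of the inserted cDNA is not given. *Gpr162*, 708 bases from *Cd4*, had 2 and 4 counts. *Lag3*, 16139 bases away, encodes a CD4-related inhibitory receptor and was at 14.2 ± 2.74 CPM (SD, n = 2), which per kb was 32.7 and 18.6 times the level of *Cd4*. RNA of a CD4-related gene next to *Cd4* was thus present in libraries in which *Cd4* itself was low, and whether the same cells held both was not tested.

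Levels of different genes were compared per kb of annotated exon. *Dntt* came first with 5.75 ± 0.123 CPM per kb (SD, n = 2), which was 6.22 times the 0.925 ± 0.363 of *Cd24a*. *Cd4* followed with 0.295 ± 0.166 CPM per kb and then *Rag1* with 0.125 ± 0.0740, and their libraries came as close as 0.178 for *Cd4* in replicate 1 and 0.177 for *Rag1* in replicate 2. *Ptcra*, *Arpp21*, and *Rag2* were at 0.0946, 0.0730, and 0.0439 CPM per kb. The libraries of *Rag1* and *Ptcra* overlapped, and so did those of *Arpp21* and *Rag2*, and the *Ptcra* value rests on 2 counts per library, so the order of these 4 genes is not resolved. The exons of *Arpp21* add up to 17428 bases over 31 annotated transcripts. With its longest transcript in their place, *Arpp21* was at 0.239 CPM per kb and moved from place 6 to place 4, above *Rag1*. The median of all genes tested was 4.15 CPM per kb, and *Dntt* alone of the 7 genes was above it.

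The libraries were then compared for each gene by a two-sided exact binomial test given their totals, with Benjamini-Hochberg adjustment over the 15949 genes that had at least 10 counts in all. This test compares these 2 libraries and not conditions, and a difference between the libraries cannot be told apart from one between the sexes. A difference was called if it was 2-fold or more with an adjusted p below 0.05, which held for 242 genes, or 1.52%. *Rag2* and *Ptcra* had too few counts to be tested, and 0 of the 5 other genes was called. Without the minimum fold, 16.3% of all genes and again 0 of the 5 were called. With edgeR's exact test at a fixed biological coefficient of variation of 0.1, 0.376% of all genes and 0 of the 5 were called.

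At an unadjusted p under 0.05, 3 of the 5 genes were found, against 27.7% of all genes tested. They did not move in the same direction. *Rag1* was 2.45-fold higher in replicate 2, with a log2 ratio of 1.29 (exact 95% interval, 0.03 to 2.69; adjusted p = 0.138 by the exact binomial test). *Cd4* was 2.32-fold higher in replicate 2, with a log2 ratio of 1.21 (0.18 to 2.33; adjusted p = 0.0799, exact binomial test). *Cd24a* had the opposite sign, with a log2 ratio of -0.82 (-1.54 to -0.13; adjusted p = 0.0877, exact binomial test). *Dntt* had a log2 ratio of -0.04 with a narrow interval (-0.32 to 0.23), so a 2-fold difference lies outside the counting error of this gene. The interval of *Arpp21*, from -1.19 to 0.71 around -0.23, still includes a 2-fold decrease.

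**Figure D2:**
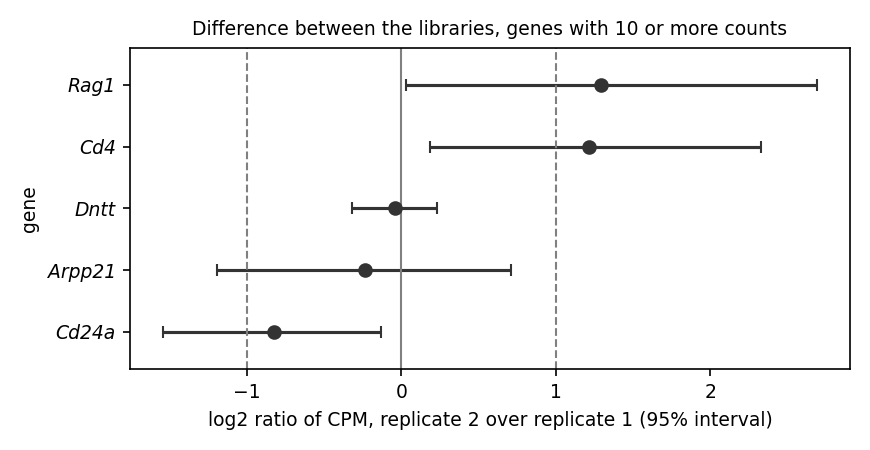
Log2 ratio of CPM, replicate 2 over replicate 1, for the 5 genes with at least 10 counts in all, with exact 95% intervals as bars and dashed lines at a 2-fold difference. *Rag1* and *Cd4* lie to the right of 0, *Cd24a* to the left, and the narrow interval of *Dntt* stays between the dashed lines.

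**Figure D3:**
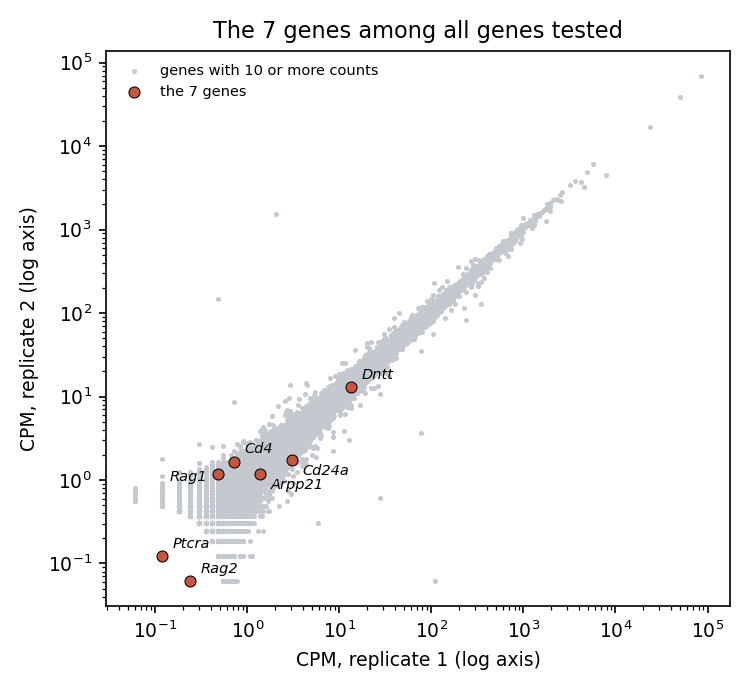
CPM of every gene with at least 10 counts in all in replicate 1 (x axis) and replicate 2 (y axis), both on log axes, with the 7 genes in red; 15 genes at 0 in one library are not drawn. *Dntt* lies in the middle of the cloud, and *Rag2* and *Ptcra* lie below it at 5 and 4 counts in all.

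Other genes of the same developmental steps were used to place the 7 genes. The numbers of listed genes at 1 CPM or more in both libraries, here and below, stand beside 12667 of all 15949 genes tested. Of 10 further genes associated with double-positive cells, 9 had at least 1 CPM in both libraries, with a median of 8.94 CPM per kb, and 0 of the 9 tested was called different. The highest were the chromatin organizer gene *Satb1* at 549 ± 1.10 CPM, *Themis*, which tunes TCR signalling during selection, at 187 ± 11.3 CPM, and the E protein gene *Tcf12* (SD, n = 2). These 3 are also expressed in mature T cells. The lowest, examined after its values were seen, was *Endou* with 3 and 5 counts. Of 7 genes of the earlier double-negative stage, 2 had at least 1 CPM in both libraries, the growth factor receptor gene *Kit* at 8.69 ± 0.976 CPM and *Il2ra*, for CD25, at 3.19 ± 0.367 CPM, and *Notch3* had 7 and 16 counts. The *Dntt* level per kb was 5.93 ± 0.540 times that of *Kit* (SD, n = 2).

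The recombinase works with general repair proteins, and their RNA was present in libraries in which *Rag1* and *Rag2* were low. Of 12 end-joining and accessory genes, 11 were listed under their symbol, and all 11 had at least 1 CPM in both libraries, with a median of 9.27 CPM per kb, and 0 of 11 was called different. The highest were *Prkdc*, for the catalytic subunit of DNA-PK, at 122 ± 9.67 CPM, and *Hmgb2* and *Hmgb1*, for DNA-bending cofactors of RAG, at 115 ± 12.6 and 109 ± 2.32 CPM (SD, n = 2). All 13 factors known to act on control elements of *Rag* or *Cd4* were above 1 CPM in both libraries, led by *Ikzf1* at 699 ± 31.2 CPM, *Satb1*, and *Bcl11b* at 319 ± 15.1 CPM. *Myb*, for a factor that double-positive cells need, was the one among these 13 that was called, with 372 counts in replicate 1 and 740 in replicate 2. It was 2.05-fold higher in replicate 2 (adjusted p = 8.02e-29, exact binomial test), but 1.94-fold with edgeR's TMM library sizes and 1.96-fold with DESeq2 size factors, under the minimum of 2-fold. *Rag1* and *Cd4* had their higher value in the same library, and the part of *Myb* in this was not tested.

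Genes of the TCR complex and of mature thymocytes lay far above the 7 genes. All 9 partner genes of the pre-TCR and TCR had at least 1 CPM in both libraries, with a median of 180 CPM per kb, led by *Lck*, for the kinase bound by the co-receptors, at 811 ± 64.4 CPM, *Cd3g* at 589 ± 44.3 CPM, and *Trac* at 417 ± 24.0 CPM. The 9 genes of mature thymocytes had a median of 127 CPM per kb, led by *H2-K1* at 2734 ± 137 CPM and *Ms4a4b* at 784 ± 38.5 CPM (SD, n = 2). The 6 proliferation genes were all above 1 CPM in both libraries, with *Mki67* at 81.0 ± 5.12 CPM, *Top2a* at 52.7 ± 4.53 CPM, and *Ccna2* with 206 and 190 counts, and 0 of 6 was called different. The rest of this list was lower, with *Birc5* at 6.50 ± 1.51, *Cdk1* at 3.53 ± 0.846, and *Ccnb1* at 1.61 ± 0.162 CPM. Its median was 2.43 CPM per kb, under the 4.15 of all genes tested. Which cells gave these counts was not tested.

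**Figure D4:**
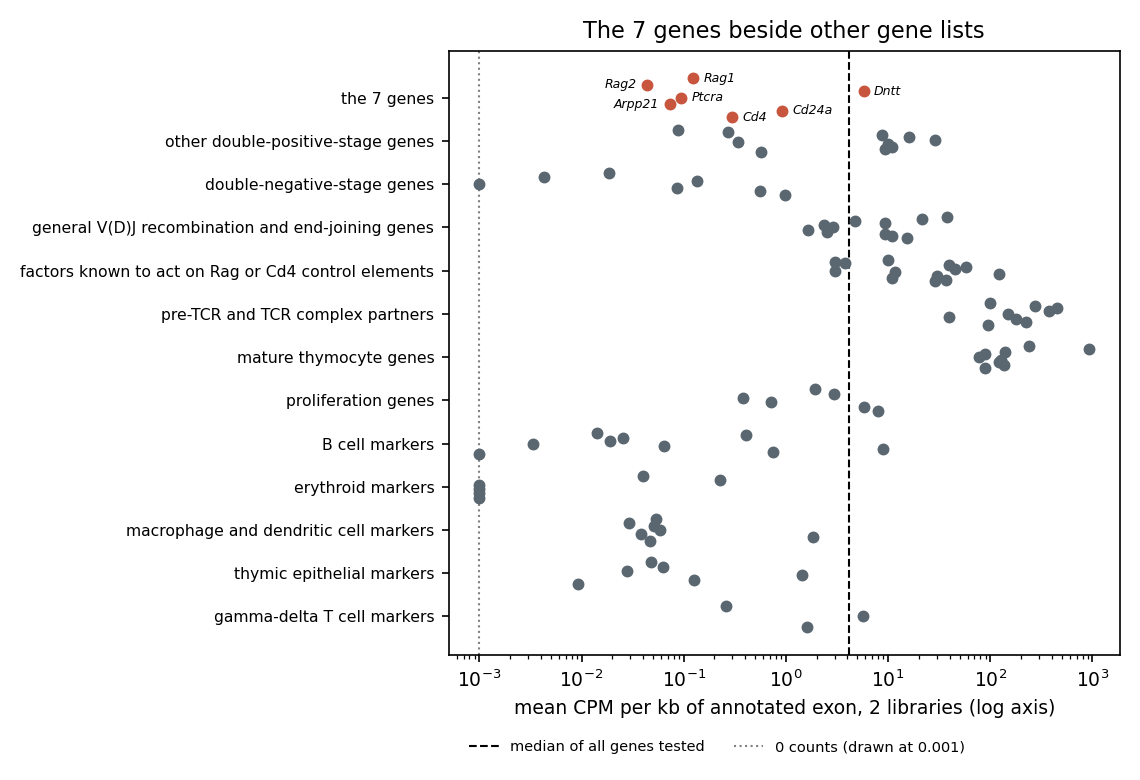
Mean level over the 2 libraries in CPM per kb of annotated exon, on a log axis, for the 7 genes (red) and for the genes of each other list (grey), with genes at 0 counts drawn at the left edge and the median of all genes tested, 4.15, as a dashed line. Of the 7 genes *Dntt* alone lies right of the dashed line, while the TCR partner and mature thymocyte genes all lie right of it.

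Some of the 7 genes are also expressed outside the thymocyte lineage, since developing B cells use *Rag1*, *Rag2*, and *Dntt*, and erythroid cells carry CD24. The cells were sorted for high TCRβ and low CD24, and their purity after sorting is not given in the sources used here. Markers of B cells summed to 14.3 CPM in replicate 1 and 16.1 CPM in replicate 2, of which *Cd79b* was at 12.8 ± 1.60 CPM. *Cd79a* and *Vpreb1*, for a surrogate light chain of early B cells, were at 1.09 and 0.484 CPM. *Pax5*, for a factor that defines B cells, had 1 and 0 counts, and *Igll1*, the partner of *Vpreb1*, had 0 and 1, both picked after their values were seen. Of 6 erythroid markers, 4 had 0 counts in both libraries, and *Alas2* and *Klf1* were at 0.547 and 0.0616 CPM.

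The macrophage and dendritic cell markers summed to 10.3 and 12.9 CPM, with 1 of 7 at 1 CPM or more in both libraries, *Csf1r* at 10.7 ± 1.43 CPM. The next highest were *Itgax* at 0.244 CPM and *Flt3* at 0.182 CPM, and the defining *Adgre1* and *Lyz2* had 0 counts in replicate 1 and 4 and 2 in replicate 2. Thymic epithelial markers summed to 3.88 and 4.37 CPM, mostly *Epcam* at 3.13 ± 0.194 CPM, with *Psmb11* at 0.607 CPM and *Aire* at 0.182 CPM, and *Foxn1* had 1 count and 0. Markers of γδ T cells summed to 12.3 and 13.0 CPM, with *Trdc* at 6.23 ± 1.29, *Tcrg-C1* at 5.30 ± 0.704, and *Sox13* at 1.12 ± 0.105 CPM (SD, n = 2). None of the tested genes of the B cell, erythroid, macrophage and dendritic, epithelial, and γδ lists was called different between the libraries, and the part of such cells in the levels of the 7 genes was not tested.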

How the data were processed

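Poly(A) RNA of sorted CD4- mature thymocytes was sequenced as single-end reads of 50 bases in 2 libraries. Per the labels, the authors aligned the reads with TopHat2 2.1.1 to mm10 (GRCm38) and deposited raw counts per gene made with HTSeq 0.6.1, without normalization. The annotation and strand setting are not given in the sources used here, so reads on overlapping genes of either strand cannot be assigned with certainty. Rows for unassigned, ambiguous, and multiply aligned reads name no gene and were left out of totals. Unassigned reads were 55.9% and ambiguous reads 2.92 to 3.52% of uniquely aligned reads.

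CPM, Wilson and exact 95% intervals, and exact binomial tests with Benjamini-Hochberg adjustment over all genes with at least 10 counts were computed in Python 3.11.15 with scipy 1.17.1, checked on simulated counts. Of 48321 symbols, 46394 were found in GENCODE M21, which gave positions, exons, and lengths. Alternatives used edgeR 4.0.16 and DESeq2 1.42.0 in R 4.3.3, other totals, minimum counts, and lengths. The sources used here do not state the mice behind each library. Sex-linked RNA shows that they were not the same mouse, so the spread between the libraries includes a difference of sex. The 7 genes, the gene lists, and the rule for named genes (the 7 genes, the 3 highest genes of each list, genes called, other cell type markers at 1 CPM or more in both libraries, and adjacent genes) were chosen with earlier results of these data known. Genes named outside this rule, such as defining markers at or near 0, were chosen after their values were seen. Some genes of the lists are counted but not reported here by name.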

Additional observations from a re-analysis of the deposited data

How the results depend on the processing

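The level of the 7 genes moved by more than 1 SD in a single kind of alternative. When totals were formed without 393 mitochondrial and rRNA genes, which held 16.0% of the counts in replicate 1 and 12.6% in replicate 2, the sum became 22.3 CPM, *Dntt* 15.4 CPM, *Ptcra* 0.142 CPM, and *Arpp21* 1.49 CPM, because the totals became smaller. A mean of 2 libraries cannot move by more than 1 SD when either is left out, and TMM or DESeq2 library sizes, close to 1 on both sides, can hardly move it, so these settings are no test of stability.

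The number of the 7 genes with at least 1 CPM in both libraries was 3. With a minimum of 0.5 CPM it was 4, and with a minimum of 5 CPM it was 1. At 1 CPM it ranged from 3 to 5 when either replicate was left out, a choice made after seeing the data. In the order per kb, 4 genes kept their place when the longest transcript set the length, and 2 kept it without correction for length, *Dntt* and *Cd24a*. The number of genes that differed between the libraries was 55 with at least 100 counts, 60 with edgeR's exact test, and 2596 without a minimum fold, against 242, and none of those of the 7 genes that were tested was among them under the 6 alternatives, which also included another minimum of 1 count and both library scalings. Of the 242 genes 92 were higher in replicate 1 and 150 in replicate 2, but TMM library sizes gave a split of 100 to 98, and DESeq2 size factors one of 98 to 104. Over the settings tried the adjusted p ranged from 0.138 to 1 for *Rag1*, from 0.0732 to 0.917 for *Cd24a*, and from 0.0799 to 0.893 for *Cd4*. Depth limits *Rag2* and *Ptcra*, whose counts of 1 to 4 per library allow no statement on their difference.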
